A study of Mus musculus with 6 samples.

Results

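The RGD-binding integrin subunits examined here were 8 genes given by symbol, Itga5, Itga8, Itgav, Itgb1, Itgb3, Itgb5, Itgb6 and Itgb8, of the 27179 genes counted. They comprise 3 alpha and 5 beta subunits. The list was drawn up with results of these data known, and Itga8 was selected on its counts, since its increase was among the strongest in the CRY2 line. Its values are therefore given as a description with no test, and so are those of all 8 genes in the comparison of the CRY2 line with its parent. Of the 8 genes, 7 had enough counts to be tested and Itgb6 did not, among 14069 genes tested in all.

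mRNA was sequenced from 3 lines of mouse embryonic fibroblasts (MEFs), and each line gave 2 libraries, made from separate RNA preparations. The CPN-/- line lacks both copies of Cry1, Cry2, Per1, Per2, Nr1d1 and Nr1d2, which encode the cryptochrome, period and REV-ERB repressors of the circadian clock. The CPN-/-CRY1 and CPN-/-CRY2 lines carry the same 6 deletions and in addition express exogenous CRY1 or exogenous CRY2. The exogenous gene was driven by a viral promoter, and each of those lines was grown from a single colony selected with blasticidin. No such selection and no empty vector is described for CPN-/-. The protein, the viral vector, the selection and the clone therefore cannot be told apart. No other treatment is described, and the medium was DMEM with fetal bovine serum. The comparisons asked which mRNAs differ when one cryptochrome is present in cells that otherwise lack the clock repressors.

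Integrins are receptors of one alpha and one beta subunit that bind the extracellular matrix outside the cell and the actin cytoskeleton inside it. One subfamily recognises the tripeptide arginine-glycine-aspartate (RGD) in fibronectin, vitronectin, osteopontin and the propeptide of latent TGF-beta. Its alpha chains include α5, α8 and αv, encoded by Itga5, Itga8 and Itgav. The α5 and α8 chains pair with β1, whereas αv pairs with β1, β3, β5, β6 or β8. Fibroblasts are known for α5β1, the main fibronectin receptor, and for αv integrins that release TGF-beta from its latent complex, and α8β1 is known as the receptor for nephronectin in the developing kidney and as an integrin of mesenchymal and smooth muscle cells.

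The libraries held 25957409 to 36106949 counts, with TMM scaling factors of 0.991 to 1.01. Cry1 stood at 165 and 189.6 CPM (read counts scaled to a common library total) in CPN-/-CRY1 against 125 and 115 in CPN-/- and 51.0 and 48.3 in CPN-/-CRY2. Cry2 stood at 349 and 351 CPM in CPN-/-CRY2 against 136 and 129 in CPN-/- and 50.7 and 51.7 in CPN-/-CRY1. Each gene was thus highest in the line named for it, although counts per gene include any transcript left from the deleted locus as well as the exogenous one. Of 9 fibroblast markers, Col1a1, Col1a2, Col3a1, Vim, Pdgfra and Pdgfrb were well detected in all 6 libraries, whereas Lum, Thy1 and Dcn had 0 to 1, 1 to 7 and 1 to 61 counts. The summed epithelial markers reached at most 1.89 CPM and Epcam had 0 counts in every library. The 2 CPN-/- libraries differed from each other more than those of the other lines did, with an SD of the log2 difference over 12478 genes of 0.435 against 0.232 in CPN-/-CRY1 and 0.245 in CPN-/-CRY2. In CPN-/- this difference increased with transcript length (Spearman's rho 0.697 across those genes, which are not independent replicates and share the 2 libraries), and rho was -0.205 for CPN-/-CRY1 and 0.289 for CPN-/-CRY2.

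CRY proteins repress the activator CLOCK-BMAL1, which binds the E-box CACGTG, so the promoters of the subunits were read from the RefSeq promoter table (build GRCm38.p6), which held windows for 7 of the 8 genes. The sequences of the 250 bases upstream of the start are shown for Itga8 and Itgb8, the subunits whose level was highest in CPN-/-CRY2 in both libraries without overlap with the other lines, and for Itgav, which rose in CPN-/-CRY1. The starts are those of the promoter table, and the gene coordinates below are those of the RefSeq gene table. By those coordinates the Itga8 window lies partly, and the Itgav window wholly, inside the gene. The windows of Itga8, Itgb8 and Itgav lie at chr2:12301945-12302194 on the minus strand, at chr12:119238277-119238526 on the minus strand and at chr2:83724147-83724396 on the plus strand.
Itga8: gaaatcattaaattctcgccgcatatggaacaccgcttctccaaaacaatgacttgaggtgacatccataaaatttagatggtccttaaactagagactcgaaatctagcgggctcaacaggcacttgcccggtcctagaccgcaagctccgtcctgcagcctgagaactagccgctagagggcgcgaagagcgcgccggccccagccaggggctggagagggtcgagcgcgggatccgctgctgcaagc
Itgb8: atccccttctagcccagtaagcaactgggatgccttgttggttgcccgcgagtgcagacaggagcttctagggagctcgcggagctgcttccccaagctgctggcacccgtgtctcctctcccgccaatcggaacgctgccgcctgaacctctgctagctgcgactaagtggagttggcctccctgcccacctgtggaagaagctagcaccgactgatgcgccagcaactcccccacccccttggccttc
Itgav: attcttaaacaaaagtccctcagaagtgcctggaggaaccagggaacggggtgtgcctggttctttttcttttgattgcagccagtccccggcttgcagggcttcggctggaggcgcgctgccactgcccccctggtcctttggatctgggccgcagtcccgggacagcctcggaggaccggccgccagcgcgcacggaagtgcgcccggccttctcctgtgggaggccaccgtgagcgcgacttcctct
CACGTG, which reads the same on both strands, and CACGTT, searched on both strands, would be in capitals here and neither occurs. None of the 8 windows of 300 bases held by the 7 genes contains either motif, whereas 7.15% of all 32851 windows contain CACGTG and 4.68% contain CACGTT. No match says only that these letters are not in this window. The GC content of the 250 upstream bases was 56.4% for Itga8, 62.4% for Itgb8 and 64.4% for Itgav, beside a median of 52.4% over all windows.

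Itga8 lies at chr2:12106632-12301985 on the minus strand (mm10) and has 30 exons in its longest coding transcript. It had 159 and 76 counts in CPN-/-, 334 and 273 in CPN-/-CRY1, with 881 and 856 in CPN-/-CRY2, or 5.00 and 2.92, 9.24 and 8.86, and 32.4 and 31.7 CPM. Both CPN-/-CRY2 libraries were above all others and both CPN-/-CRY1 libraries were above both CPN-/- libraries, without overlap. The log2 fold change was 3.00 ± 0.22 (SE) for CPN-/-CRY2 against CPN-/-, an 8.0-fold higher level, which ranked 11 of 14069 tested genes by size of increase and 3 of the 11409 that averaged 100 counts or more. It was 1.18 ± 0.22 for CPN-/-CRY1 against CPN-/-, a 2.26-fold higher level, and -1.82 ± 0.20 for CPN-/-CRY1 against CPN-/-CRY2, a 3.54-fold lower level in CPN-/-CRY1. Both comparisons with CPN-/- share the same 2 control libraries. The choice of CPN-/- library moved these values, to 3.46 and 1.63 without replicate 1 and to 2.69 and 0.86 without replicate 2, and with the length trend removed they were 2.81 and 0.97.

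**Figure D1:**
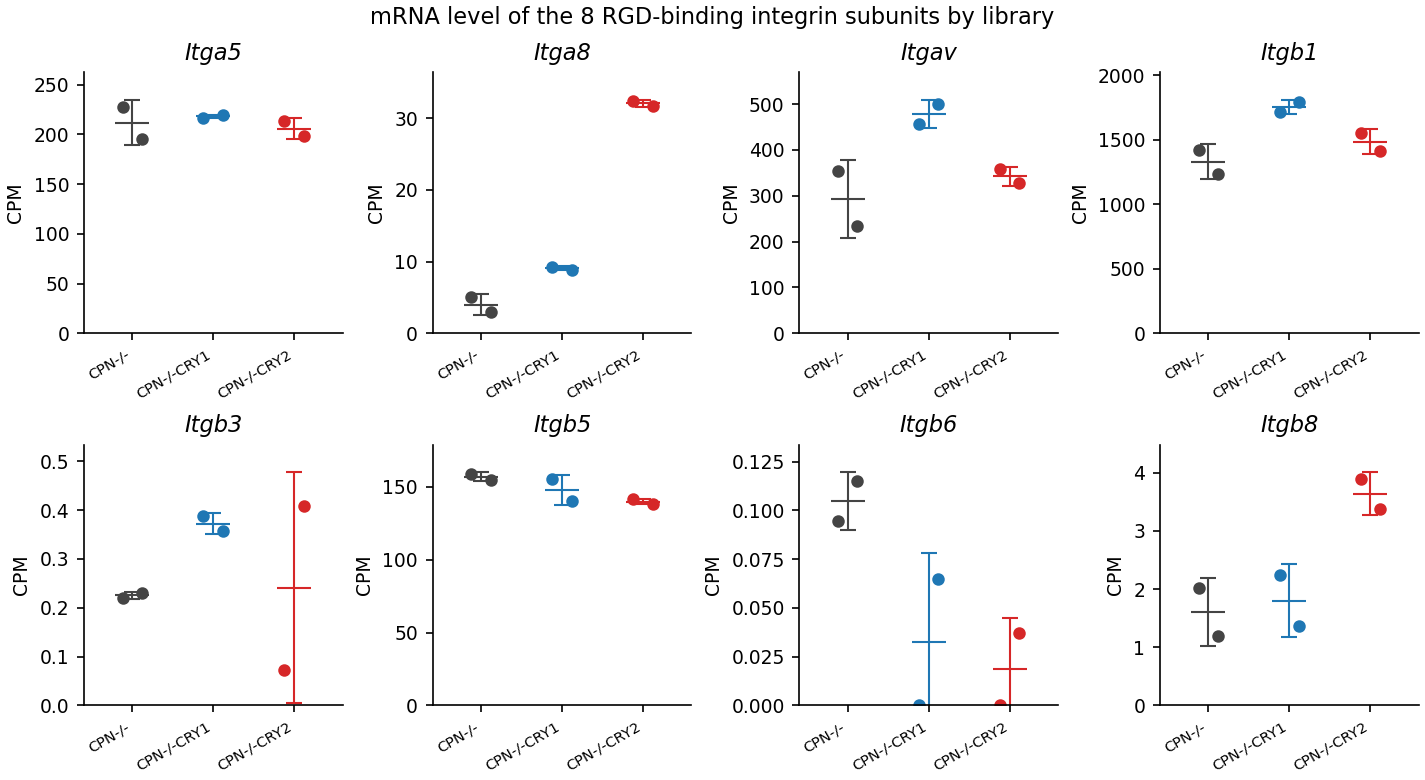
Level of each subunit in CPM (linear axes from 0) in the 6 libraries of the 3 lines, with 2 points per line for the libraries, a horizontal mark for their mean and bars for ± 1 SD. The CPN-/-CRY2 points of Itga8, at 32.4 and 31.7, stand above the CPN-/-CRY1 points at 9.24 and 8.86 and the CPN-/- points at 5.00 and 2.92.

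The exons of Itga8 overlap those of E030013I19Rik, a gene on the opposite strand, by 372 bases, and how strand was used in counting is not given in the sources used here. E030013I19Rik had 3 and 2 counts in CPN-/-, 9 and 3 in CPN-/-CRY1, with 18 and 22 in CPN-/-CRY2. It rose in CPN-/-CRY2 against CPN-/- by 3.04 on the log2 scale (edgeR, adjusted p = 0.0197) and for CPN-/-CRY1 against CPN-/-CRY2 its log2 fold change was -2.02 (edgeR, adjusted p = 0.0234). Its highest count, 22, stood beside 856 for Itga8 in the same library. Both calls were lost without either CPN-/-CRY2 library, with adjusted p up to 0.156 and 0.182 (edgeR), and that between the CRY lines was also lost without either CPN-/-CRY1 library and by DESeq2. Of the other tested neighbours on either side, 2 passed the test. Il15ra, the receptor chain that presents interleukin 15, fell in CPN-/-CRY2 (log2 fold change -2.94, edgeR, adjusted p = 0.000903) and in CPN-/-CRY1 (-1.31, edgeR, adjusted p = 0.00446), where the call was lost without CPN-/-CRY1 replicate 1 (edgeR, adjusted p = 0.0634). Mindy3, a deubiquitinase gene, rose in both, by 0.51 (edgeR, adjusted p = 0.0304) and 0.45 (edgeR, adjusted p = 0.0203), and was not called with only the 4 libraries of either comparison or without any 1 of the 4 CRY libraries. Fbh1, Ankrd16 and Pter had log2 fold changes between -0.02 and 0.31 in both comparisons with CPN-/- and did not pass the test.

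The 5 genes whose profile over the 6 libraries was nearest to that of Itga8, among the 11404 genes other than the subunits that averaged 100 counts or more, were found by the root mean square distance of log2 CPM centred on each gene's mean. Fat4, a large protocadherin, was nearest with a distance of 0.30, and stood at 38.2 and 14.8 CPM in CPN-/-, 49.6 and 43.6 in CPN-/-CRY1, with 127 and 135 in CPN-/-CRY2. Ryr3, a ryanodine receptor that releases calcium from internal stores, followed at 0.34 with 1.63 and 0.883, 5.64 and 4.51, and 11.6 and 12.8 CPM. Cldn1, a claudin of tight junctions, was at 0.44, Plxnc1, a semaphorin receptor, at 0.46, and a gene with the NCBI Gene identifier 100862313 and no symbol in the tables used was at 0.47. Pearson's r with Itga8 lay between 0.934 and 0.980 for the 5, over 6 libraries that fall into 3 lines, so that r rests on the lines. The 5 were picked for their closeness on these same values, so a high r follows from the choice and is no separate result. In Fat4, Ryr3, Cldn1 and Plxnc1, as in Itga8, replicate 2 of CPN-/- was the lower library, whereas in gene 100862313 it was the higher.

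**Figure D2:**
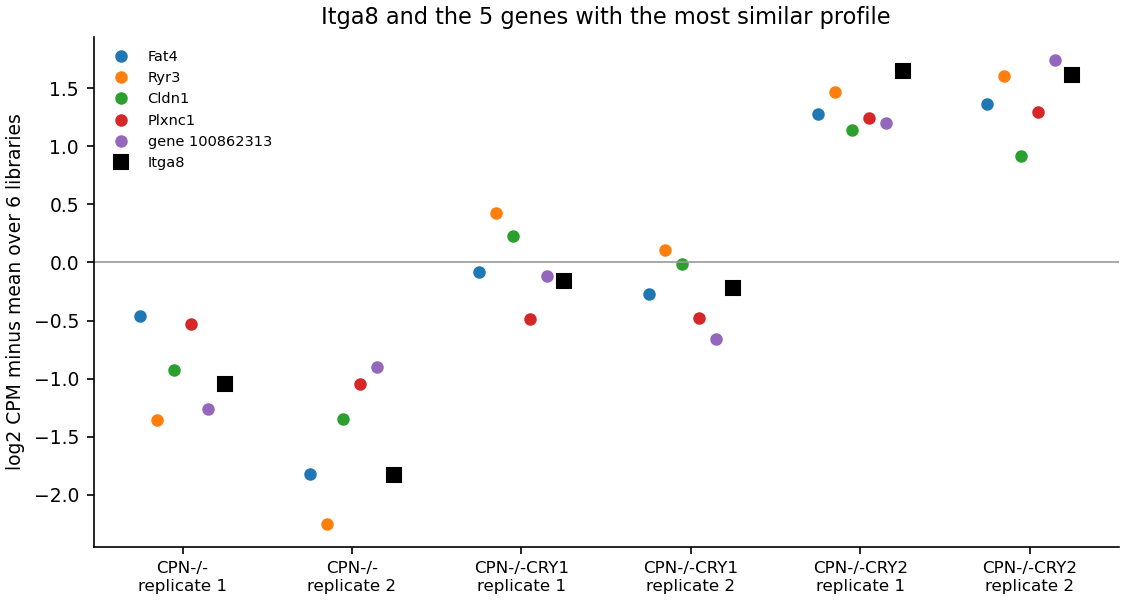
Log2 CPM of Itga8 (squares) and of its 5 nearest genes (circles) in each of the 6 libraries, after subtracting each gene's mean over the libraries. All 6 genes lie below their mean in both CPN-/- libraries and above it in both CPN-/-CRY2 libraries. The distances of the 5 from Itga8 run from 0.30 to 0.47, and they were picked for a small distance, so the likeness follows from the choice.

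Itga5 encodes the alpha chain of the classical fibronectin receptor and lies at chr15:103344286-103366791. It had 228 and 196 CPM in CPN-/-, 217 and 219 in CPN-/-CRY1, with 213 and 198 in CPN-/-CRY2. The CPN-/-CRY1 libraries lay between the 2 CPN-/- libraries. The log2 fold change was 0.04 ± 0.11 for CPN-/-CRY1 against CPN-/- (edgeR, adjusted p = 0.792), 0.08 ± 0.11 for CPN-/-CRY1 against CPN-/-CRY2 (edgeR, adjusted p = 0.679) and, as a description, -0.04 ± 0.11 for CPN-/-CRY2 against CPN-/-. The other 529 tested genes of chromosome 15 had a median log2 fold change of -0.36 in CPN-/-CRY1 against CPN-/- and -0.43 against CPN-/-CRY2, whereas the medians over all tested genes were -0.01 and 0. Relative to its chromosome, Itga5 stood 0.41 and 0.51 higher. Whether the number of copies of that chromosome differs was not tested.

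Itgav encodes the αv chain shared by 5 heterodimers and lies at chr2:83722303-83806917. Its exons overlap those of Gm13684, a gene on the opposite strand, by 634 bases, and the strand setting of the counting is not given. It had 353 and 233 CPM in CPN-/-, 457 and 499.5 in CPN-/-CRY1, with 358 and 328 in CPN-/-CRY2. Both CPN-/-CRY1 libraries were above the other 4, and the CPN-/-CRY2 libraries overlapped those of CPN-/-. Itgav rose in CPN-/-CRY1 against CPN-/-, with a log2 fold change of 0.71 ± 0.19, or 1.63-fold (edgeR, adjusted p = 0.0389). The call was lost with only the 4 libraries of the comparison (edgeR, adjusted p = 0.0837). It was also lost without either CPN-/-CRY1 library, at log2 fold changes of 0.77 ± 0.26 and 0.64 ± 0.26. Without either CPN-/-CRY2 library it was lost too, at 0.71 ± 0.21 in each case. The log2 fold change was 1.04 without CPN-/- replicate 1 and 0.44 without CPN-/- replicate 2, fits in which the spread of CPN-/- plays no part. With the length trend removed it was 0.43 and passed the test (edgeR, adjusted p = 0.00116).

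Against CPN-/-CRY2, Itgav was higher in both CPN-/-CRY1 libraries by a log2 fold change of 0.48 ± 0.19, which did not pass the test over all 6 libraries (edgeR, adjusted p = 0.142). With only the 4 libraries of those lines it passed (edgeR, adjusted p = 9.16e-08), and the value stayed 0.48. It also passed without CPN-/- replicate 1 (edgeR, adjusted p = 1.14e-08), without CPN-/- replicate 2 (2.66e-08) and with the length trend removed (0.000841). It did not pass by DESeq2 (adjusted p = 0.0722) or without any 1 of the 4 CRY libraries (edgeR, adjusted p = 0.344 to 0.504). The spread between the 2 CPN-/- libraries enters the test over all 6 libraries, but not those with only 4 libraries or with 1 CPN-/- library. In CPN-/-CRY2 against CPN-/- the log2 fold change was 0.23 ± 0.19.

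Itgb1 encodes the β1 chain, the partner of α5, α8 and most other alpha chains, and lies at chr8:128685654-128733579. It had 1423 and 1233 CPM in CPN-/-, 1717 and 1790.2 in CPN-/-CRY1, with 1555 and 1416 in CPN-/-CRY2. Both CPN-/-CRY1 libraries were above the other 4. Itgb1 rose in CPN-/-CRY1 against CPN-/-, with a log2 fold change of 0.40 ± 0.12, or 1.32-fold (edgeR, adjusted p = 0.0489). That call stood close to the threshold and was lost with only the 4 libraries (edgeR, adjusted p = 0.114). It was also lost without either CPN-/-CRY1 library, at log2 fold changes of 0.43 ± 0.18 and 0.37 ± 0.18. Without either CPN-/-CRY2 library it was lost too, at 0.41 ± 0.14 in each case. The log2 fold change was 0.24 ± 0.12 against CPN-/-CRY2 (edgeR, adjusted p = 0.226, with 0.00402 for only those 4 libraries and 0.423 to 0.725 without any 1 of them), and 0.16 ± 0.12 in CPN-/-CRY2 against CPN-/-.

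Itgb5, the β chain of the vitronectin receptor αvβ5, lies at chr16:33829665-33949338. It had 159 and 155 CPM in CPN-/-, 155 and 140.4 in CPN-/-CRY1, with 141 and 139 in CPN-/-CRY2. The CPN-/-CRY2 libraries were below both CPN-/- libraries and the CPN-/-CRY1 libraries overlapped both other lines. The log2 fold change was -0.09 ± 0.10 for CPN-/-CRY1 against CPN-/- (edgeR, adjusted p = 0.514), 0.08 ± 0.10 for CPN-/-CRY1 against CPN-/-CRY2 (edgeR, adjusted p = 0.651) and -0.17 ± 0.10 for CPN-/-CRY2 against CPN-/-. The other 419 tested genes of chromosome 16 had medians of 0.27 and 0.35 in the first 2 of these comparisons, so that Itgb5 stood at -0.36 and -0.27 relative to them. A stretch of 343 bases of Itgb5 is 99.7% identical to the transcript Gm38317, and how reads with several matches were counted is not given in the sources used here.

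Itgb8, the β chain of αvβ8, which activates latent TGF-beta, lies at chr12:119162803-119238276. It had 64 and 31 counts in CPN-/-, 81 and 42 in CPN-/-CRY1, with 106 and 91 in CPN-/-CRY2, or 2.01 and 1.19, 2.24 and 1.36, and 3.89 and 3.37 CPM. Both CPN-/-CRY2 libraries were above the other 4, which overlapped each other. The log2 fold change was -1.0 ± 0.30 for CPN-/-CRY1 against CPN-/-CRY2 (edgeR, adjusted p = 0.0711), and it passed with only those 4 libraries (edgeR, adjusted p = 0.000179) but not without any 1 of them (edgeR, adjusted p = 0.114 to 0.356). It was 0.16 ± 0.33 for CPN-/-CRY1 against CPN-/- (edgeR, adjusted p = 0.733) and, as a description, 1.16 ± 0.31 for CPN-/-CRY2 against CPN-/-.

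Itgb3, the β chain of platelets and osteoclasts, had 7 and 6 counts in CPN-/-, 14 and 11 in CPN-/-CRY1, with 2 and 11 in CPN-/-CRY2. Its log2 fold changes were 0.72 ± 0.61 for CPN-/-CRY1 against CPN-/- (edgeR, adjusted p = 0.406) and 0.63 ± 0.62 for CPN-/-CRY1 against CPN-/-CRY2 (edgeR, adjusted p = 0.56), and a difference was not detectable at this depth. With only the CPN-/- and CPN-/-CRY2 libraries Itgb3 did not pass the filter. It was therefore tested because of its CPN-/-CRY1 counts, and nothing is read from the sign of these 2 values. Itgb6, the β chain of epithelial cells, had 3 and 3 counts in CPN-/-, 0 and 2 in CPN-/-CRY1, with 0 and 1 in CPN-/-CRY2. A count of 0 allowed up to 0.083 CPM in the CPN-/-CRY1 library and up to 0.11 CPM in the CPN-/-CRY2 library, for counting error only.

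**Figure D3:**
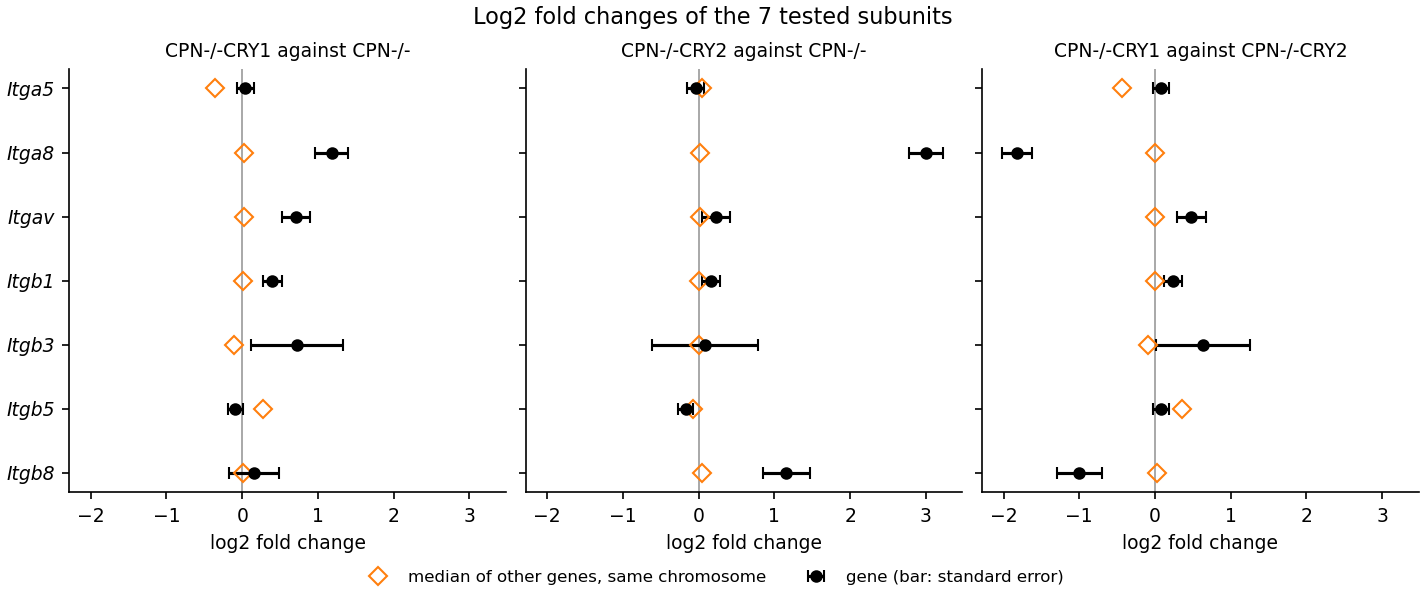
Log2 fold changes of the 7 tested subunits (black, bars ± 1 SE) in the 3 comparisons, with the median of the other tested genes of the same chromosome (open diamonds). Itga8 reaches 3.00 in CPN-/-CRY2 against CPN-/-, and the medians lie apart from 0 for Itga5 (-0.36) and Itgb5 (0.27) in CPN-/-CRY1 against CPN-/-.

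Counted together, 2 of the 6 tested subunits other than Itga8 rose in CPN-/-CRY1 against CPN-/-, Itgav and Itgb1, and 0 fell, with 2 at an unadjusted p under 0.05 and 2 called by DESeq2. Among all tested genes 24.3% were called in that comparison, 11.2% higher and 13.1% lower. In CPN-/-CRY1 against CPN-/-CRY2 edgeR called 0 of the 6, where 2 had an unadjusted p under 0.05 and DESeq2 called 0, beside 16.3% of all tested genes, 7.72% higher and 8.57% lower. In CPN-/-CRY2 against CPN-/-, the comparison on which Itga8 was chosen, no calls of subunits were counted, and 6.66% of all tested genes were called, with 2.58% higher and 4.08% lower. The median log2 fold change of the 6 was 0.28 in CPN-/-CRY1 against CPN-/-, 0.13 in CPN-/-CRY2 against CPN-/- and 0.16 in CPN-/-CRY1 against CPN-/-CRY2, beside -0.01, -0.01 and 0 over all tested genes. The medians include Itgb3 and the length trend. With that trend removed, Itga5, Itgav, Itgb1, Itgb3, Itgb5 and Itgb8 had -0.08, 0.43, 0.33, 0.52, -0.11 and -0.16 in CPN-/-CRY1 against CPN-/-. In the same order they had -0.14, -0.03, 0.11, -0.09, -0.18 and 0.85 in CPN-/-CRY2 against CPN-/-.

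**Figure D4:**
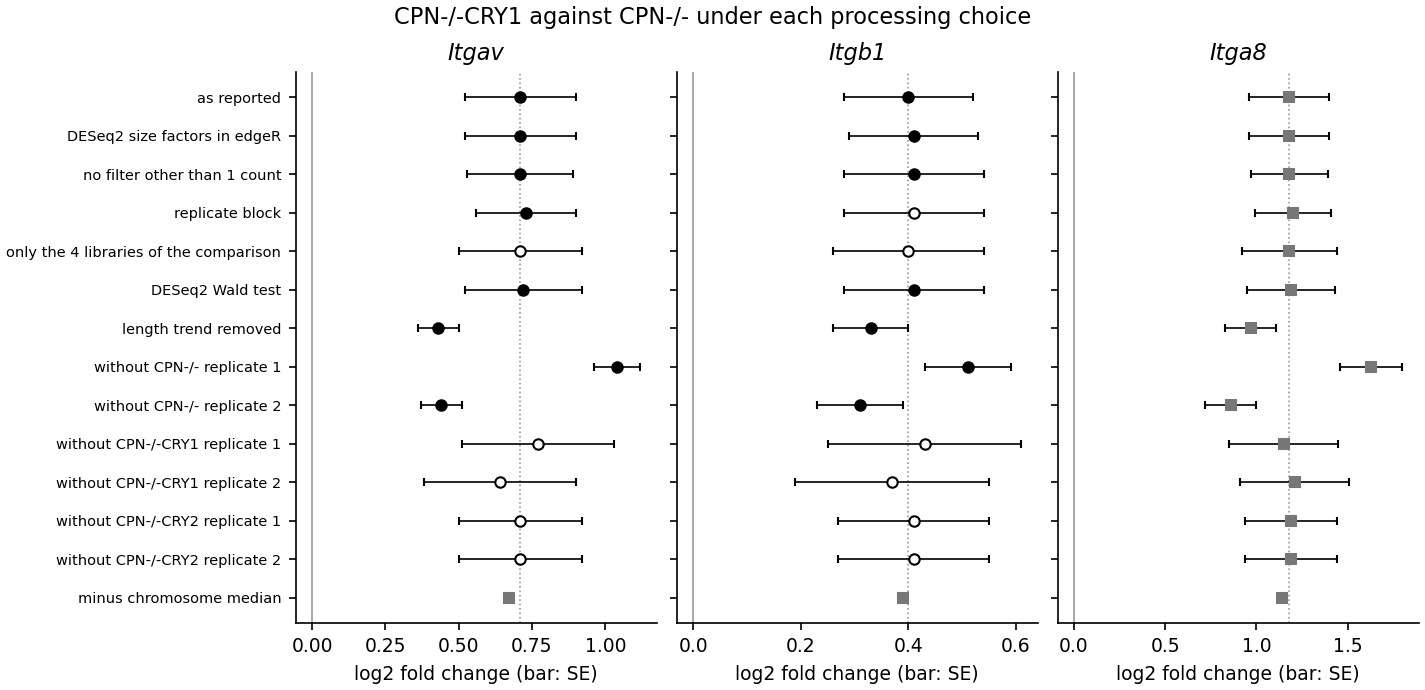
Log2 fold change of Itgav, Itgb1 and Itga8 in CPN-/-CRY1 against CPN-/- as reported and under each other processing choice (bars ± 1 SE). Filled circles passed an adjusted p of 0.05, open circles did not, squares carry no test and the dotted line marks the reported value. All values lie above 0, between 0.43 and 1.04 for Itgav, between 0.31 and 0.51 for Itgb1 and between 0.86 and 1.63 for Itga8.

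To compare levels between genes, CPM was divided by the length of the longest coding transcript in kilobases. Itgb1 was the most abundant subunit per length in each line, with 348 ± 35.2 CPM per kb (SD, n = 2) in CPN-/-, 459.7 ± 13.6 in CPN-/-CRY1 and 389 ± 25.7 in CPN-/-CRY2. Itga5, Itgb5 and Itgav followed in CPN-/- at 48.3 ± 5.18, 47.9 ± 0.875 and 41.5 ± 12.02 CPM per kb, with overlapping libraries. In CPN-/-CRY1 their order was Itgav at 67.8 ± 4.30, Itga5 at 49.7 ± 0.374 and Itgb5 at 45.0 ± 3.17 CPM per kb, and no neighbours overlapped. In CPN-/-CRY2 Itgav at 48.6 ± 2.96 and Itga5 at 47.0 ± 2.42 CPM per kb overlapped, and Itgb5 lay below them at 42.7 ± 0.614. With the union of all exons as length, Itgb5 came before Itga5 in CPN-/- and Itgav came after Itga5 and Itgb5 in CPN-/-CRY2, so these neighbours have no fixed order.

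Itga8 ranked 5 in every line, at 0.681 ± 0.253 CPM per kb in CPN-/-, 1.56 ± 0.0470 in CPN-/-CRY1 and 5.51 ± 0.0786 in CPN-/-CRY2. Its share of the summed level per length of the 3 alpha subunits was 0.836% and 0.642% in the CPN-/- libraries, 1.37% and 1.25% in CPN-/-CRY1, with 5.31% and 5.61% in CPN-/-CRY2. Thus even in the line where it was highest, Itga8 was a small share of these 3 alpha chains. Itgb8, Itgb3 and Itgb6 ranked after it in every line, with mean levels of at most 0.432 CPM per kb. Itgb1 made up 87.2% to 91.6% of the summed beta level per length over the 6 libraries. These shares compare mRNA and say nothing of receptor protein at the surface.

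Of the 18 integrin subunits outside the list of 8, whether or not they bind RGD, 13 were tested. In CPN-/-CRY1 against CPN-/- 1 rose and 5 fell, in CPN-/-CRY2 against CPN-/- 2 rose and 1 fell, and in CPN-/-CRY1 against CPN-/-CRY2 Itga7 was higher and Itga2b, Itga4, Itga10 and Itga11 were lower, beside 24.3%, 6.66% and 16.3% of all tested genes called in the 3 comparisons. Without either CPN-/-CRY1 library 0 rose and 1 or 2 fell in CPN-/-CRY1, without either CPN-/-CRY2 library 1 rose and 0 fell in CPN-/-CRY2, and between the CRY lines 0 were higher and 0 or 1 lower without any 1 of the 4 CRY libraries, the calls of Itga7, Itga10 and Itga2b being lost each time. Without CPN-/- replicate 1 the numbers higher and lower were 3 and 5, 5 and 1, and 3 and 8, and without CPN-/- replicate 2 they were 2 and 6, 2 and 3, and 3 and 8. Itga1, the alpha chain of a collagen and laminin receptor, rose in CPN-/-CRY1 from 14.1 and 8.79 CPM to 27.1 and 28.1 (log2 fold change 1.26 ± 0.20, edgeR, adjusted p = 0.0073). In CPN-/-CRY2 it stood at 37.6 and 37.7 CPM (1.71 ± 0.21, edgeR, adjusted p = 0.00474), and between the CRY lines it did not pass the test (-0.45 ± 0.20, edgeR, adjusted p = 0.175). The order of the 3 lines was thus that of Itga8. Itga10, another collagen-binding chain, had 4.56 and 3.95 CPM in CPN-/-, 3.96 and 4.61 in CPN-/-CRY1, with 8.49 and 8.78 in CPN-/-CRY2. It rose in CPN-/-CRY2 (1.02 ± 0.15, edgeR, adjusted p = 0.0104). In CPN-/-CRY1 against CPN-/-CRY2 its log2 fold change was -1.01, where the other tested genes of chromosome 3 had a median of -0.4. Itga7, a laminin receptor chain of muscle, fell in CPN-/-CRY2 from 175 and 146 CPM to 109 and 103 (-0.59 ± 0.12, edgeR, adjusted p = 0.0311). The increase of Itga1 in CPN-/-CRY2 passed under all 12 alternatives. Its increase in CPN-/-CRY1 was lost without either CPN-/-CRY1 library (edgeR, adjusted p up to 0.0674), and that of Itga10 and the decrease of Itga7 without either CPN-/-CRY2 library (edgeR, adjusted p up to 0.109 and 0.286). The decrease of Itga7 was also lost without either CPN-/-CRY1 library and with only the 4 libraries of the comparison.

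Itga2b, the platelet chain that pairs with β3, fell in CPN-/-CRY1 from 15 and 15.6 CPM to 8.47 and 7.17 (-0.96 ± 0.13, edgeR, adjusted p = 0.00409), a call lost without CPN-/-CRY1 replicate 2 (edgeR, adjusted p = 0.0595). The other 4 that fell in CPN-/-CRY1, Itga4, Itga11, Itgb2 and Itgb7, had at most 83 counts in any library. Itgb2 and Itga2b are also leukocyte or platelet markers, and the summed level of the 6 such markers was 18.9 to 19.7 CPM in CPN-/-, 9.83 to 11.2 in CPN-/-CRY1 and 15.6 to 16.9 in CPN-/-CRY2, with 0 to 2 counts of Ptprc, the pan-leukocyte marker. Itga2b and Itgb2 make up most of that sum, so that it repeats their own values, and Cd68, the other detected marker, had 1.76 and 1.77 CPM in CPN-/-, 1.80 and 2.08 in CPN-/-CRY1, with 1.62 and 1.82 in CPN-/-CRY2. The 5 smooth muscle markers summed to 1413 to 1790.1 CPM in CPN-/-, 5121 to 5310 in CPN-/-CRY1 and 2144 to 2384 in CPN-/-CRY2. Acta2 and Tagln carried that sum, whereas Cnn1 had 2 to 8 counts, Myh11 had 0.576 to 1.10 CPM in all libraries, and Des stood at 1.45 and 2.00 CPM in CPN-/- but 0.719 and 0.843 in CPN-/-CRY1. The smooth muscle sum was thus highest in the line where Itgav and Itgb1 rose and not in the line where Itga8 was highest, and its part in these results was not tested. In bulk RNA, more cells of a kind and more RNA per cell cannot be told apart.

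Of 17 genes for proteins that carry or present RGD to these receptors, 14 were tested. In CPN-/-CRY1 against CPN-/- 3 rose and 3 fell, in CPN-/-CRY2 against CPN-/- 2 rose and 3 fell, and in CPN-/-CRY1 against CPN-/-CRY2 Tgfb1 and Igfbp2 were higher and Edil3, Thbs1 and Fbln5 were lower, beside 24.3%, 6.66% and 16.3% of all tested genes called in the 3 comparisons. Without either CPN-/-CRY1 library 0 rose and 2 fell in CPN-/-CRY1, without either CPN-/-CRY2 library 0 rose and 3 fell in CPN-/-CRY2, and between the CRY lines Tgfb1 and Edil3 alone were called without any 1 of the 4 CRY libraries. Without CPN-/- replicate 1 the numbers higher and lower were 9 and 3, 9 and 3, and 6 and 6, and without CPN-/- replicate 2 they were 7 and 5, 5 and 4, and 6 and 6. Spp1, which encodes osteopontin, a ligand of αv and α8 integrins, had 99.6 and 113 CPM in CPN-/-, 14.1 and 13.7 in CPN-/-CRY1, with 19.4 and 16.8 in CPN-/-CRY2. It fell in CPN-/-CRY1 (log2 fold change -2.94 ± 0.12, edgeR, adjusted p = 8.82e-05) and in CPN-/-CRY2 (-2.55 ± 0.12, edgeR, adjusted p = 0.000259). Igfbp2, an insulin-like growth factor binding protein with an RGD sequence, had 106 and 97 counts in CPN-/-, 18 and 13 in CPN-/-CRY1, with 1 and 3 in CPN-/-CRY2, and fell in both (edgeR, adjusted p = 0.000662 and 0.000632).

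Edil3, an RGD protein of developing vessels, moved in opposite directions. It had 6.16 and 4.49 CPM in CPN-/-, fell to 2.49 and 2.50 in CPN-/-CRY1 (log2 fold change -1.10 ± 0.19, edgeR, adjusted p = 0.00842) and rose to 13.4 and 13.1 in CPN-/-CRY2 (1.31 ± 0.17, edgeR, adjusted p = 0.00626). The difference between the CRY lines was -2.41 ± 0.18 (edgeR, adjusted p = 0.000511) and passed under all 12 alternatives, whereas the decrease was lost without either CPN-/-CRY1 library (edgeR, adjusted p up to 0.0822) and the increase without either CPN-/-CRY2 library (edgeR, adjusted p up to 0.0656). Tgfb1, whose propeptide is an RGD ligand of αv integrins, had 12.04 and 12.4 CPM in CPN-/-, 14.8 and 16.1 in CPN-/-CRY1, with 3.64 and 4.37 in CPN-/-CRY2. It fell in CPN-/-CRY2 against CPN-/- (-1.61 ± 0.14, edgeR, adjusted p = 0.00145) and was higher in CPN-/-CRY1 than in CPN-/-CRY2 (1.95 ± 0.14, edgeR, adjusted p = 0.000428). The line with the highest Itga8 and Itgb8 thus had the lowest Tgfb1, but Tgfb3, also on the list, was highest there. Tgfb3 had 52.2 and 40.2 CPM in CPN-/-, 55.9 and 51.3 in CPN-/-CRY1, with 71.5 and 66.9 in CPN-/-CRY2. It was not called in CPN-/-CRY2 against CPN-/- (0.58 ± 0.14, edgeR, adjusted p = 0.0618) or between the CRY lines (-0.37 ± 0.14, edgeR, adjusted p = 0.127).

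Fbn1, the microfibril protein fibrillin 1, rose in CPN-/-CRY1 (1.14 ± 0.25, edgeR, adjusted p = 0.0207), and so did Mfge8, the bridging protein lactadherin (0.30 ± 0.09, edgeR, adjusted p = 0.0497). Fbln5, an elastic fibre protein, had 231 and 225 CPM in CPN-/-, 307 and 287 in CPN-/-CRY1, with 393 and 374 in CPN-/-CRY2. It rose in CPN-/-CRY1 (0.38 ± 0.10, edgeR, adjusted p = 0.0289) and in CPN-/-CRY2 (0.75 ± 0.10, edgeR, adjusted p = 0.00568). All 3 increases of that list in CPN-/-CRY1 were lost with only the 4 libraries of the comparison and without either CPN-/-CRY1 library, with adjusted p up to 0.125 for Fbn1 and 0.277 for Mfge8 (edgeR). In CPN-/-CRY2 the increase of Fbln5 was lost without either CPN-/-CRY2 library (edgeR, adjusted p up to 0.0991), and in CPN-/-CRY1 it was also lost with the length trend removed, at a log2 fold change of 0.14 (edgeR, adjusted p = 0.284). Fn1, the fibronectin gene, had 2400.0 and 1059 CPM in CPN-/-, 2641 and 2742 in CPN-/-CRY1, with 2720.3 and 2488 in CPN-/-CRY2, and did not pass the test in any comparison. Without CPN-/- replicate 1 it passed in CPN-/-CRY1 (log2 fold change 1.35, edgeR, adjusted p = 1.24e-15) and in CPN-/-CRY2 (1.30, edgeR, adjusted p = 6.69e-15), and without CPN-/- replicate 2 the values were 0.17 and 0.13 and did not pass. Npnt, the gene of the α8β1 ligand nephronectin, had 2 to 17 counts and was not tested.

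**Figure D5:**
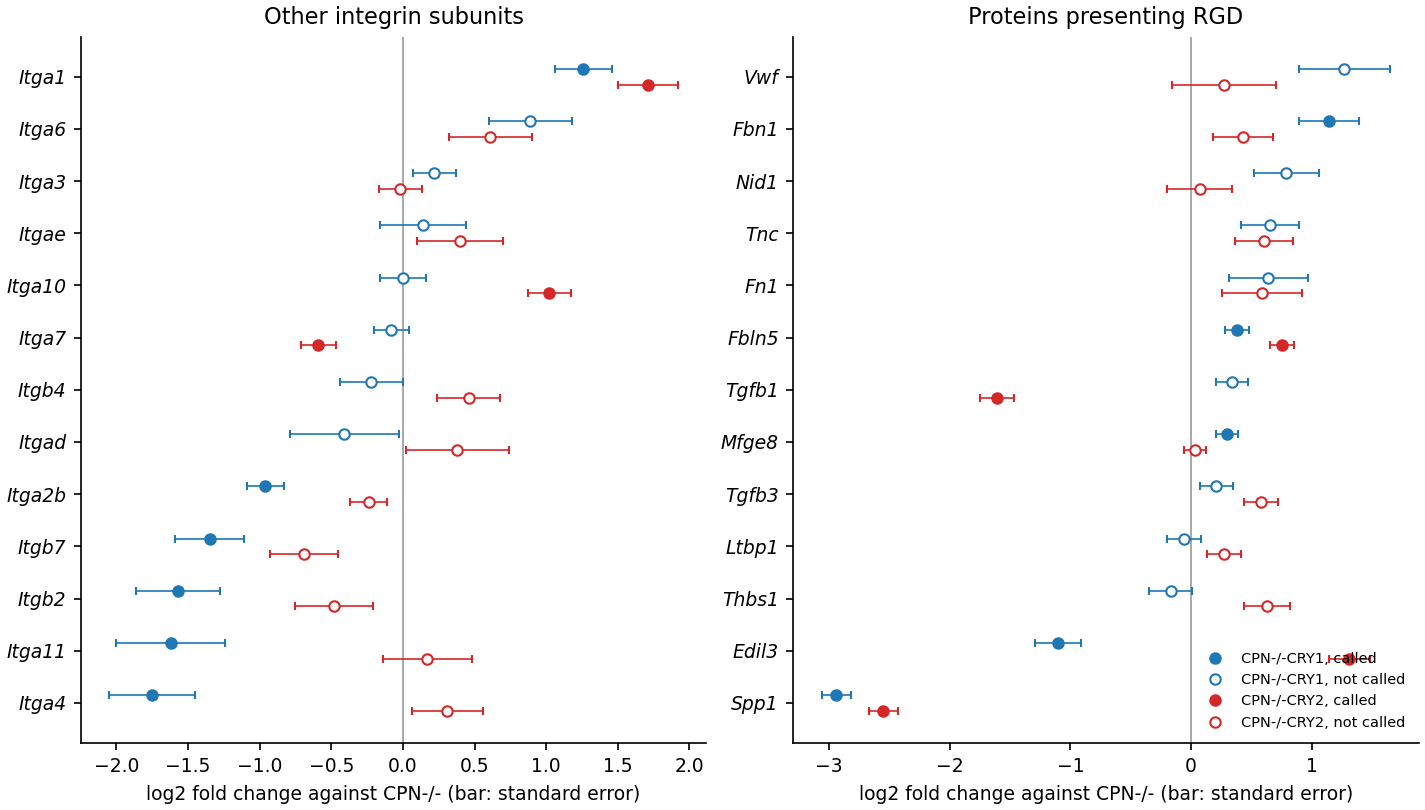
Log2 fold changes against CPN-/- (bars ± 1 SE) of the 13 tested integrin subunits outside the RGD-binding list (left) and of 13 genes for proteins presenting RGD (right, Igfbp2 left out because its CPN-/-CRY2 libraries held 1 and 3 counts), in CPN-/-CRY1 (blue) and CPN-/-CRY2 (red), filled where the adjusted p was under 0.05. Spp1 lies at -2.94 and -2.55, and Edil3 lies on opposite sides of 0 at -1.10 and 1.31.

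Of 23 genes for proteins that link integrins to actin or regulate them inside the cell, 22 were tested. In CPN-/-CRY1 against CPN-/- 10 rose and 3 fell, in CPN-/-CRY2 against CPN-/- 2 rose and 0 fell, and in CPN-/-CRY1 against CPN-/-CRY2 Bcar1 and Lims2 were higher and Ptk2 and Sharpin were lower, beside 24.3%, 6.66% and 16.3% of all tested genes called in the 3 comparisons. These counts changed when 1 library was left out, which leaves its line with 1 library and no spread of its own. Without either CPN-/-CRY1 library 1 rose and 0 fell in CPN-/-CRY1, without either CPN-/-CRY2 library 0 rose and 0 fell in CPN-/-CRY2, and without any 1 of the 4 CRY libraries 1 was higher and 0 were lower between the CRY lines. Without CPN-/- replicate 1 the numbers higher and lower were 14 and 3, 12 and 3, and 14 and 5, and without CPN-/- replicate 2 they were 12 and 5, 8 and 3, and 13 and 5. The median log2 fold change was 0.34, 0.17 and 0.23 in these comparisons. Lims2 had 40 and 37 counts in CPN-/-, 217 and 188 in CPN-/-CRY1, with 34 and 33 in CPN-/-CRY2. It rose in CPN-/-CRY1 against CPN-/- (2.18 ± 0.17, edgeR, adjusted p = 0.000473) and was higher than in CPN-/-CRY2 (2.29 ± 0.17, edgeR, adjusted p = 0.00045). Vcl, which encodes vinculin, rose in CPN-/-CRY1 from 320.5 and 228 CPM to 526 and 562 (0.99 ± 0.17, edgeR, adjusted p = 0.00803), and Actn1, the actin crosslinker α-actinin 1, rose from 485 and 338 to 691 and 723 (0.78 ± 0.17, edgeR, adjusted p = 0.0189). Tns1, the focal adhesion protein tensin 1, had 7.48 and 3.80 CPM in CPN-/-, 13.3 and 14.2 in CPN-/-CRY1, with 21.2 and 24.3 in CPN-/-CRY2. It rose in CPN-/-CRY1 (1.27 ± 0.28, edgeR, adjusted p = 0.0187) and in CPN-/-CRY2 (2.00 ± 0.28, edgeR, adjusted p = 0.00826). Parva, the adaptor α-parvin, rose in CPN-/-CRY2 (0.52 ± 0.10, edgeR, adjusted p = 0.0255) and in CPN-/-CRY1 (0.71 ± 0.10, edgeR, adjusted p = 0.00412). These calls of Vcl, Actn1, Tns1 and Parva were lost when either library of the CRY line compared was left out, with adjusted p up to 0.137 in CPN-/-CRY1 (Actn1) and 0.245 in CPN-/-CRY2 (Parva, edgeR).

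The 3 that fell in CPN-/-CRY1 were Sharpin (-0.49 ± 0.11, edgeR, adjusted p = 0.0207), an inhibitor of integrin activation, Parvb (-0.44 ± 0.13, edgeR, adjusted p = 0.0472), the adaptor β-parvin, and Ptk2 (-0.34 ± 0.10, edgeR, adjusted p = 0.0448), focal adhesion kinase. All 3 lie on chromosome 15, where the median of the 529 other genes beside Itga5 was -0.36. In CPN-/-CRY1 against CPN-/-CRY2 the chromosome median was -0.43, and relative to it Ptk2 stood at -0.12 and Sharpin at -0.19. With only the 4 libraries of the comparison 7 adaptors rose and 0 fell, and the 3 decreases were also lost without either CPN-/-CRY1 library (edgeR, adjusted p up to 0.305).

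The latent TGF-beta list held 8 genes, for a ligand, proteins that hold or process the latent complex, and TGF-beta receptors. All 8 were tested. By edgeR 0 were called in CPN-/-CRY1 against CPN-/-, with 4 at an unadjusted p under 0.05 and 1 called by DESeq2, and 0 in CPN-/-CRY2 against CPN-/-, with 2 at an unadjusted p under 0.05 and 1 called by DESeq2. Between the CRY lines 3 were called, beside 16.3% of all tested genes, and without either CPN-/- library 6 were higher and 1 was lower. Against CPN-/-, 6 rose and 1 fell in CPN-/-CRY1 without CPN-/- replicate 1, while 2 rose and 1 fell without replicate 2. In CPN-/-CRY2 against CPN-/-, the same choices gave 3 that rose with 1 that fell, or 1 that rose with 2 that fell. Ltbp4, a latent TGF-beta binding protein, was higher in CPN-/-CRY1 than in CPN-/-CRY2, at 30.8 and 28.6 against 17.0 and 17.3 CPM (log2 fold change 0.79 ± 0.16, edgeR, adjusted p = 0.0197). Nrros, which anchors the latent complex, was also higher, with 27 and 17 against 4 and 5 counts (1.95 ± 0.53, edgeR, adjusted p = 0.0493). Tgfbr2, the type II receptor, was lower in CPN-/-CRY1, at 79.8 and 79.1 against 132 and 129.6 CPM (-0.72 ± 0.12, edgeR, adjusted p = 0.0104). The 3 calls were lost without any 1 of the 4 CRY libraries, with adjusted p up to 0.154 for Ltbp4, 0.268 for Nrros and 0.121 for Tgfbr2 (edgeR), and DESeq2 did not call Nrros. Tgfb1 itself, counted above with the ligands, was higher in CPN-/-CRY1 as Ltbp4 and Nrros were.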

How the data were processed

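MEF mRNA was measured in 6 libraries, 2 each for CPN-/-, CPN-/-CRY1 and CPN-/-CRY2. The authors mapped paired-end reads of stranded poly(A) libraries to mm10 (RNA STAR) and used featureCounts. The deposited values are whole read counts for 27179 NCBI Gene identifiers, not normalized. The annotation, the strand setting and the handling of reads with several matches are not given in the sources used here. The 8 subunits and all gene lists were chosen with earlier results of these data known.

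Genes were kept by filterByExpr (minimum count 10, minimum total 15), leaving 14069. Counts were tested with the two-sided quasi-likelihood test of edgeR 4.0.16 in R 4.3.3, with TMM factors, robust dispersions, the line as the only term and all 6 libraries, and Benjamini-Hochberg adjustment across the 14069 genes, at 0.05. The script was tested on simulated counts. The alternatives were DESeq2 1.42.0 as test and as size factors, a filter of 1 count, a replicate block, only the 4 libraries compared, each library left out, a loess correction (span 0.5) for transcript length, known for 12478 tested genes (88.7%), chromosome medians subtracted, and exon-union length for levels. Where the numbers of the libraries are shared between lines they carry no pairing in the labels. p-values measure the spread between RNA preparations of 1 line each. CPM are counts per 1000000 of the TMM-scaled library total.

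Symbols and gene coordinates came from the RefSeq table of GRCm38, which lacks 726 tested genes. Lengths, exons and strands came from GENCODE vM21, and both are of the same assembly as mm10. Near-identical transcripts were searched at 95% identity over at least 150 bases. The genes named were the 8 subunits, Cry1 and Cry2, up to 3 called genes per list and direction in each comparison with CPN-/- with the largest change, a mean of at least 100 counts and no overlap of libraries, and the 5 genes nearest Itga8. Neighbours and overlapping genes, genes named because 5 or fewer of a list were called in 1 direction, as Igfbp2, Itga4, Itga11, Itgb2, Itgb7, Thbs1, Bcar1, Lims2, Ltbp4, Nrros and Tgfbr2, and Fn1 and Npnt were chosen after their values were seen. Tgfb3 was also chosen after its values were seen. Protein sequences were not used here.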

Additional observations from a re-analysis of the deposited data

How the results depend on the processing

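With 2 libraries per line, calls rest on the spread shared across genes, and the CPN-/- libraries supplied most of it. Over all genes the counts called ran from 663 to 8980, from 199 to 8046 and from 475 to 6897 in the 3 comparisons, beside 3423, 937 and 2292 as reported. Both extremes of each range come from leaving out 1 library. In those fits the line left with 1 library adds nothing to the spread, so the counts depend on which lines supply it.

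Of the subunits other than Itga8, 2 were called in CPN-/-CRY1 against CPN-/-. The count was 0 with only the 4 libraries and ran from 0 to 3 with 1 library left out, the 3 adding Itga5 without CPN-/- replicate 1 (edgeR, adjusted p = 0.044). The alternatives planned for such a count in CPN-/-CRY2 against CPN-/- are not given, since Itga8 was chosen on that comparison. Between the CRY lines the count was 0 as reported, 1 without the filter, 3 with only the 4 libraries, 3 with the length trend removed, and 0 to 3 with 1 library left out. The 3 were Itgav, Itgb1 and Itgb8.

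The replicate numbers did not pair the libraries: the correlations of the lines' replicate differences were -0.0791, 0.141 and -0.0296. With the replicate block the counts were 1 in CPN-/-CRY1 against CPN-/- and 1 between the CRY lines, Itgb1 passing from an adjusted p of 0.0489 to 0.0503 in CPN-/-CRY1 against CPN-/- (edgeR) and Itgb8 being called between the CRY lines (edgeR, adjusted p = 0.0203).

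Some log2 fold changes that did not pass the test changed sign. In CPN-/-CRY1 against CPN-/- the log2 fold change of Itga5 was -0.08 with the length trend removed and ran from -0.06 (without CPN-/- replicate 2) to 0.16 (without CPN-/- replicate 1). That of Itgb8 was -0.16 with the length trend removed, -0.13 without CPN-/- replicate 2, and ran from -0.25 (without CPN-/-CRY1 replicate 1) to 0.62 (without CPN-/- replicate 1). That of Itgb3 in CPN-/-CRY1 against CPN-/-CRY2 ran from -0.13 to 2.28 (without CPN-/-CRY2 replicate 1 and replicate 2). That of Fn1 in the same comparison ran from -0.02 to 0.11 (without CPN-/-CRY2 replicate 2 and replicate 1). The cause was not tested. For the lists, the calls higher and lower in CPN-/-CRY1 against CPN-/- ran over all alternatives from 0 to 3 and 1 to 6 for other subunits, 0 to 9 and 2 to 5 for RGD proteins, 1 to 14 and 0 to 5 for adaptors, and 0 to 6 and 0 to 1 for latent TGF-beta. Spp1 in both comparisons with CPN-/-, and Tgfb1 and Edil3 between the CRY lines, passed under all 12 alternatives.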
